A study of Mus musculus with 9 samples.

Results

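Adipocytes of the mouse fibroblast line 3T3-L1 that had lost most of their PPAR gamma transcript were compared with the preadipocytes from which such cells are made, to describe which features of the fat cell were still present and which features matched neither state. The comparison used 6 of the 9 arrays of the study, 3 of PPAR gamma siRNA adipocytes and 3 of preadipocytes, chosen by the sample titles. The other 3 arrays, of adipocytes given a non-targeting control siRNA, are quoted beside them as the level of the intact fat cell. Of 45101 probe sets on each array, 64 were controls and 45037 were tested. A gene was represented by the brightest of its probe sets that carry just 1 symbol, which left 18193 genes.

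Preadipocytes were 3T3-L1 cells that received neither the hormone cocktail nor any siRNA. Both adipocyte groups had been induced with 10 µg/ml insulin, 1 µM of the glucocorticoid dexamethasone and 0.5 mM of the phosphodiesterase inhibitor IBMX. At 14 days after induction they were detached with trypsin and collagenase, electroporated with 2 or 3 nmol of siRNA and replated. The labels do not say which arrays had which amount, and the sources used here give no time from electroporation to harvest. Because the preadipocytes were not electroporated, the effects of the procedure, of the siRNA and of differentiation cannot be told apart in this comparison. The series describes its replicates as technical, so a p-value reflects the scatter of these arrays alone, which may be technical. The number of arrays, 3 in each group, bounds the precision. All cells come from 1 line. In such bulk samples, fewer cells of a type and less RNA of a gene per cell cannot be told apart.

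Adipocytes store energy as triglyceride in a lipid droplet, and they build this state when PPAR gamma, a nuclear receptor activated by lipid ligands, joins with C/EBP alpha to switch on the genes of lipid uptake, synthesis and storage. PPAR gamma acts as a dimer with a retinoid X receptor and stays abundant in the mature cell. Preadipocytes are fibroblast-like cells that divide, secrete a collagen-rich matrix, carry contractile stress fibres and express factors such as GATA2 and DLK1 that hold differentiation back.

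Levels below are deposited log2 array values, one for each array in the order of the replicate numbers, and changes are log2 differences of PPAR gamma siRNA adipocytes minus preadipocytes ± SE from limma, fitted over the 9 arrays. The log2 scale was read from the range of values, 2.41 to 14.59. A gene is called higher or lower at an adjusted p under 0.05 (limma, Benjamini-Hochberg over the 45037 probe sets). By this rule 6632 of the 18193 genes were called, which is 36.5%, with 3558 higher (19.6%) and 3074 lower (16.9%). The median change over all genes was 0.07, and the smallest called change had a size of 0.22. At least 2-fold differences were called for 781 genes in the higher direction (4.29%) and 912 in the lower direction (5.01%). At least 8-fold differences were called for 96 higher genes (0.528%) and 36 lower genes (0.198%). The 8-fold differences were mostly upward, and the 2-fold ones were slightly more often downward. Correlations between arrays were 0.965 to 0.971 across the groups compared and 0.994 to 0.998 within them.

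**Figure D1:**
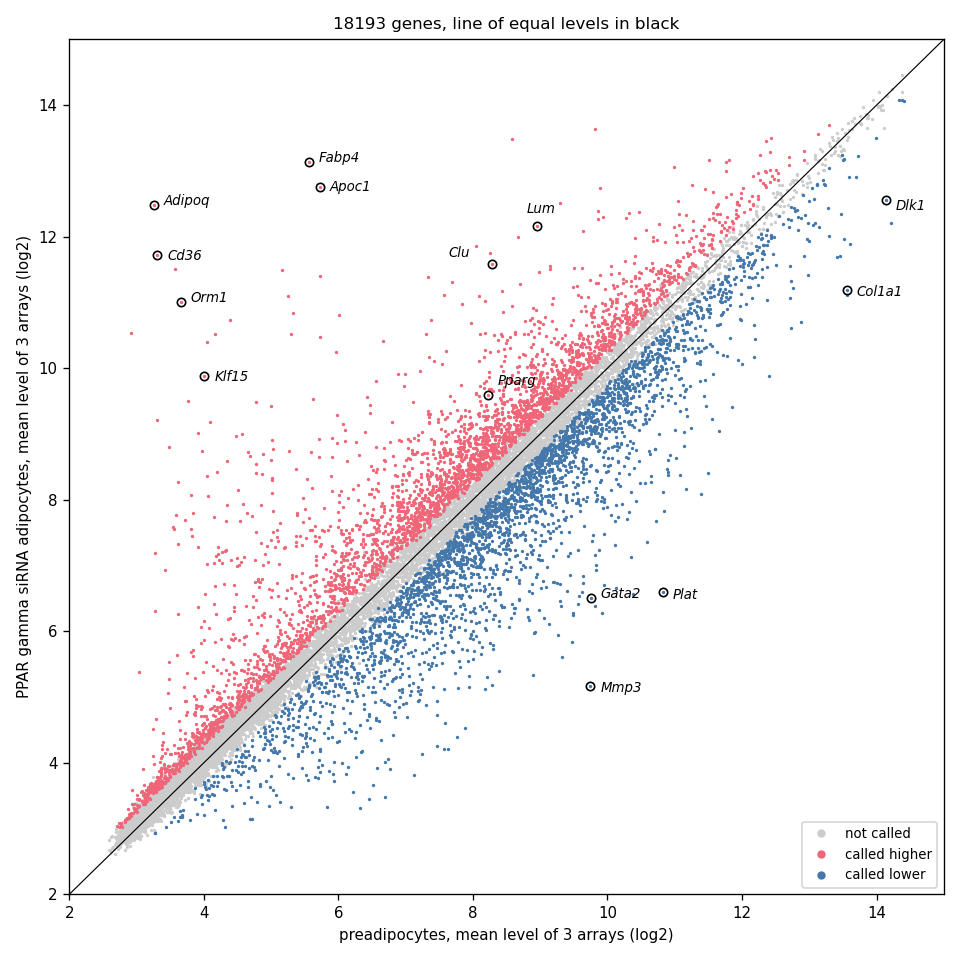
Each point is 1 of 18193 genes, placed by its mean log2 level over 3 preadipocyte arrays (horizontal axis) and 3 PPAR gamma siRNA arrays (vertical axis). Genes called higher are red, genes called lower blue and genes not called grey. The fat-cell genes Adipoq, Cd36, Fabp4 and Klf15 lie far above the line of equal levels, and Mmp3, Plat and Gata2 lie far below it.

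RNA quality and spike-in signals differed along the comparison. The excess of the 3' over the 5' probe set of Actb, which grows as RNA is degraded, was 0.23, 0.31 and 0.36 in preadipocytes and 0.56, 0.54 and 1.25 in PPAR gamma siRNA adipocytes, with 0.91 to 1.30 under control siRNA. The spike-in BioB-5 read 7.60, 7.45 and 7.08 in preadipocytes and 7.95, 8.49 and 8.38 in PPAR gamma siRNA adipocytes. Neither measure overlapped between the groups. With the Actb excess as a covariate, 2677 genes were called higher and 2759 lower. The part of the spike-in difference in the results was not tested.

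Pparg, the target of the siRNA, stood at 8.35, 8.20 and 8.12 in preadipocytes and at 9.54, 9.58 and 9.64 in PPAR gamma siRNA adipocytes, against 12.89, 12.82 and 12.65 with control siRNA. The depleted cells lay well below the intact fat cells on every array, yet above every preadipocyte array. Relative to preadipocytes Pparg was 2.58-fold higher (log2 change 1.36 ± 0.09, adjusted p = 6.98e-07 by limma). Gata2 went the other way: it stood at 9.80, 9.68 and 9.78 in preadipocytes and at 6.09, 6.74 and 6.69 in the depleted cells, a log2 change of -3.25 ± 0.19 (adjusted p = 1.46e-07), with 6.71, 6.07 and 6.57 under control siRNA. The levels of the 2 adipocyte groups overlapped for this gene. A further Gata2 probe set gave a change of -2.71. Gata3, a relative of Gata2, fell by 0.54 on the log2 scale (SE 0.15, adjusted p = 0.0168), a call that was lost under 5 of the 19 other settings, among them the omission of preadipocyte array 1 or 2 or of PPAR gamma siRNA array 1 or 2. The changes for Gata3 over the 19 settings were -0.79 to -0.43. Rxra, the partner receptor of PPAR gamma, differed by 0.37 ± 0.15, which did not pass the test (adjusted p = 0.0768).

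The labels could be checked against marker genes. Adiponectin (Adipoq), Fabp4 and Cd36 were far higher in the PPAR gamma siRNA adipocytes than in preadipocytes, and the preadipocyte factors Dlk1, Thy1 and Col1a1 were highest in preadipocytes. Not every preadipocyte marker separated the groups: Col3a1, from the same fixed set, overlapped between preadipocytes and PPAR gamma siRNA adipocytes. Leptin (Lep) stood near the bottom of the scale in all 9 arrays, between 3.37 and 3.95, so that this marker did not separate the groups by much (log2 change 0.33 ± 0.11, adjusted p = 0.0442, lost under 10 of the 18 other settings that kept its probe set, among them the omission of preadipocyte array 2 or 3, of control siRNA array 2 or of any PPAR gamma siRNA array). Perilipin 1 was not analysed here.

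The core fat-cell programme remained visible in the depleted cells to a very uneven degree. Counts of called list members, here and below, stand beside 19.6% of all genes called higher and 16.9% called lower. A count near these shares is no result about the members of a list. Of 24 measured PPARG target and identity genes, 18 were higher than in preadipocytes and 1 was lower, with a median change of 1.61 beside 0.07 over all genes. Between intact adipocytes and preadipocytes the same list had a median change of 4.80. The members ranged from genes still 601-fold above preadipocytes to genes that were back at the preadipocyte level.

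At the upper end stood secreted and lipid-handling proteins. Adipoq read 3.21, 3.40 and 3.17 in preadipocytes and 12.52, 12.61 and 12.34 in PPAR gamma siRNA adipocytes, against 14.36, 14.37 and 14.39 with control siRNA. It was 601-fold higher than in preadipocytes (log2 change 9.23 ± 0.10, adjusted p = 4.76e-13). The preadipocyte values lie near the bottom of the scale, where folds are understated. Cd36, a transporter of long-chain fatty acids, read 3.35, 3.42 and 3.14 in preadipocytes and 11.69, 11.73 and 11.73 in the depleted cells (341-fold). Fabp4, which carries fatty acids in the cytoplasm, read 5.65, 5.57 and 5.48 against 13.05, 13.18 and 13.18 (191-fold). On the log2 scale the depleted cells were far closer to intact adipocytes than to preadipocytes for all of these. They were still below intact adipocytes, with differences of -1.88 for Adipoq, -1.50 for Cd36 and -1.28 for Fabp4 (adjusted p = 5.78e-08, 4.31e-07 and 5.02e-07 by limma). The intact levels of Adipoq and Fabp4 lie near the highest value on the arrays, 14.59, where differences may be understated. The glucocorticoid-activating enzyme Hsd11b1 (change 5.67), the melanocortin receptor partner Mrap (5.31) and the glycerol 3-phosphate dehydrogenase Gpd1 (5.22) were also raised. Lipoprotein lipase, Lpl, was already abundant in preadipocytes at 12.47, 12.37 and 12.40, and its level of 13.30, 13.28 and 13.30 in the depleted cells was 1.84-fold higher.

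In the middle were genes that kept a clear excess over preadipocytes but on the log2 scale lay nearer to them than to intact adipocytes. Cidec, which fuses lipid droplets, read 3.82, 3.67 and 3.68 in preadipocytes and 7.54, 7.90 and 7.65 in the depleted cells, against 13.00, 13.08 and 12.98 in intact adipocytes. Resistin (Retn), an adipocyte hormone, read 5.33, 5.30 and 5.67, then 7.46, 7.46 and 7.45, against 12.69, 12.49 and 12.59. Haptoglobin (Hp), a plasma protein that binds haemoglobin, read 4.43, 4.54 and 5.09, then 8.68, 8.67 and 8.64, against 12.99, 13.07 and 13.04. The 3 groups did not overlap for any of these genes. Their excess over preadipocytes was 15.7-fold, 4.06-fold and 15.7-fold in that order (adjusted p = 2.6e-10, 8.17e-08 and 3.33e-09 by limma).

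At the lower end, several strong fat-cell genes did not differ detectably from preadipocytes. Cidea, a droplet protein of the same family as Cidec, read 3.93, 3.77 and 3.93 in preadipocytes, 4.25, 4.29 and 3.83 in the depleted cells and 9.73, 10.20 and 9.98 with control siRNA. Pck1, the enzyme of glycerol synthesis from pyruvate, read 3.86, 3.75 and 3.53, then 3.98, 3.75 and 3.62, against 7.84, 8.61 and 8.47. Angptl4, a secreted inhibitor of lipoprotein lipase, read 9.39, 9.36 and 9.29, then 9.34, 9.40 and 9.46, against 12.40, 12.33 and 12.23. In all of these the depleted cells overlapped the preadipocytes and lay far below the intact adipocytes. Their changes against preadipocytes were 0.25 ± 0.14, 0.07 ± 0.18 and 0.05 ± 0.08 (adjusted p = 0.2309, 0.8216 and 0.7028). Cidea and Pck1 lay near the bottom of the scale in preadipocytes and depleted cells, where a difference may be understated. The glycerol channel Aqp7 was close behind with a change of 0.39 ± 0.12 (adjusted p = 0.0343). Pdk4, the kinase that blocks pyruvate oxidation, went below preadipocytes: it read 8.46, 8.83 and 8.93 in them and 7.90, 7.54 and 7.83 in the depleted cells, against 10.29, 10.41 and 10.16 with control siRNA (log2 change -0.98 ± 0.14, adjusted p = 0.000169).

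**Figure D2:**
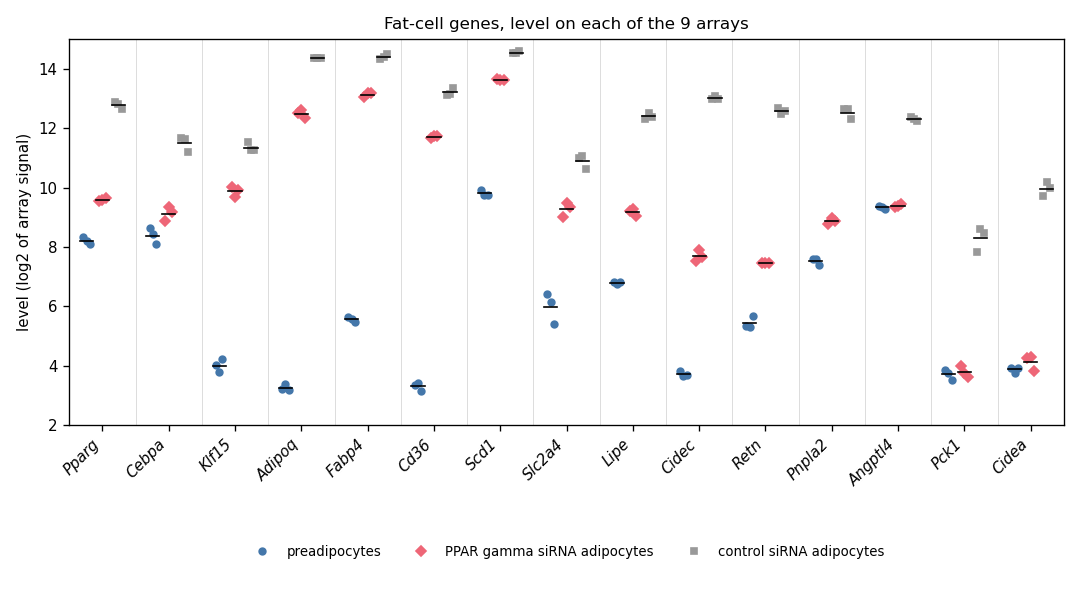
Log2 level of 15 fat-cell genes on each array (vertical axis), with 3 points for each group and a black line at the group mean. Adipoq, Fabp4 and Cd36 of PPAR gamma siRNA adipocytes (red diamonds) lie below control siRNA adipocytes (grey squares), but nearer to them than to preadipocytes (blue circles). Angptl4, Pck1 and Cidea lie level with preadipocytes.

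Genes of lipid synthesis remained raised almost throughout. Of 26 measured genes of fatty acid and triglyceride synthesis, 23 were higher than in preadipocytes and none lower. The median change was 1.45, beside 2.36 for intact adipocytes against preadipocytes. Against intact adipocytes, 18 of the 26 were called lower and 4 higher, beside 16.1% and 19.9% of all genes. Thrsp, a promoter of lipogenesis, rose by 7.62 ± 0.09, and read 10.53, 10.53 and 10.53 in the depleted cells beside 2.98, 2.97 and 2.78 in preadipocytes. Scd1, the desaturase that makes oleate, read 13.67, 13.62 and 13.64 beside 9.93, 9.77 and 9.75 (14.2-fold). Fatty acid synthase, Fasn, was 5.16-fold and acetyl-CoA carboxylase, Acaca, 3.15-fold higher. The regulator Srebf1 and the desaturase Fads1 stood above both other groups. Srebf1, which drives the transcription of lipogenic enzymes, read 8.21, 8.08 and 8.24 in preadipocytes, 11.10, 10.85 and 11.09 in the depleted cells and 10.43, 10.36 and 10.50 with control siRNA (change against preadipocytes 2.84 ± 0.09, adjusted p = 1.79e-09). Triglyceride assembly was split between its final enzymes: Dgat2 kept a 19.5-fold excess over preadipocytes, and Dgat1 kept a 2.17-fold excess. Dgat2 was still below intact adipocytes (log2 difference -2.265, adjusted p = 1.57e-08 by limma). The elongase Elovl6 differed by -0.09 ± 0.20 (adjusted p = 0.7636).

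Of 19 measured genes of the lipid droplet and lipolysis, 13 were higher and none lower, with a median change of 1.25 beside 4.18 for intact adipocytes against preadipocytes. The median was 0.77 when all probe sets of a gene were averaged. G0s2, an inhibitor of the triglyceride lipase, stood out at 11.71, 11.28 and 11.53 in the depleted cells beside 3.79, 3.45 and 3.48 in preadipocytes (243-fold). The lipases themselves kept less. Hormone-sensitive lipase, Lipe, read 6.83, 6.75 and 6.82 in preadipocytes, 9.22, 9.28 and 9.05 in the depleted cells and 12.31, 12.52 and 12.38 with control siRNA. The triglyceride lipase Pnpla2 read 7.60, 7.60 and 7.41, then 8.78, 8.99 and 8.89, against 12.65, 12.64 and 12.32. Both remained above every preadipocyte array, by 5.23-fold and 2.55-fold (adjusted p = 5.77e-09 and 2.63e-06). Abhd5, the coactivator of Pnpla2, read 9.35, 9.32 and 9.05 in the depleted cells and 9.21, 9.30 and 9.24 in preadipocytes, with overlapping arrays and a change of -0.01 ± 0.10 (adjusted p = 0.9595). The monoglyceride lipase Mgll was 3.64-fold and the niacin receptor Hcar2, which restrains lipolysis, 6.84-fold above preadipocytes. The droplet coats Plin2 and Plin4 were 1.61-fold and 3.28-fold higher.

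Secreted fat-cell proteins formed the list with the highest median. Of 19 measured members, 17 were higher and 1 was lower, and the median change was 2.02 beside 2.96 for intact adipocytes against preadipocytes. Besides Adipoq, the acute-phase proteins Orm1 (change 7.36) and Itih4 (6.35) and the chemoattractant chemerin, Rarres2 (4.92), led the list. Rarres2 read 8.79, 8.49 and 8.44 in preadipocytes, 13.57, 13.49 and 13.41 in the depleted cells and 13.81, 13.88 and 13.88 with control siRNA. Its level in the depleted cells lay just under that of intact adipocytes. Sncg, a synuclein, and Sparcl1, a matricellular protein, were above intact adipocytes as well as preadipocytes. The growth factor Nrg4 kept little, at 4.95, 4.95 and 4.66 beside 4.08, 3.90 and 3.89 in preadipocytes and 9.0, 9.12 and 9.19 with control siRNA. Gas6, a ligand of TAM receptors, was the member that fell (log2 change -0.61 ± 0.15, adjusted p = 0.009).

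In the insulin pathway, 16 of 27 measured genes were higher and 3 lower, with a median change of 0.61. The median was 1.00 when dim probe sets were left out and 0.43 when all probe sets of a gene were averaged. The insulin-responsive glucose transporter Slc2a4 read 6.41, 6.13 and 5.41 in preadipocytes, 9.0, 9.49 and 9.35 in the depleted cells and 11.01, 11.07 and 10.64 with control siRNA. It thus stood between the other groups, 9.81-fold above preadipocytes (adjusted p = 6.3e-07). The GLUT4 regulator Trarg1 (change 3.90), hexokinase Hk2 (2.40) and the insulin receptor Insr (1.40 ± 0.19, adjusted p = 0.00012) were higher. The kinase Akt1 was lower, at 10.08, 10.40 and 10.49 beside 11.58, 11.48 and 11.35 in preadipocytes (log2 change -1.15 ± 0.14, adjusted p = 5.4e-05). The adaptor Irs1 differed by 0.00 ± 0.09 from preadipocytes (adjusted p = 0.9982). Grb14, an adaptor that inhibits the insulin receptor, was above both other groups, at 8.62, 9.06 and 9.21 beside 7.55, 7.62 and 7.63 in preadipocytes and 6.38, 6.0 and 6.49 with control siRNA.

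Mitochondrial, peroxisomal and amino acid-degrading enzymes retained a smaller, broad excess. Of 30 genes of fatty acid oxidation and the citric acid cycle, 22 were higher and 2 lower (median change 0.57). Of 36 subunits of oxidative phosphorylation, 27 were higher and 1 was lower (median 0.47), none of them by 2-fold, and 16 were higher in a test against 1.2-fold. Of 25 peroxisomal genes 17 were higher and 1 was lower (median 0.53), and of 22 genes of branched-chain amino acid breakdown 17 were higher and 1 was lower (median 1.06). The few lower calls among the first 3 lists turned on single arrays: 1 in place of 2 was left for oxidation without PPAR gamma siRNA array 2 or any preadipocyte array, 2 were found for oxidative phosphorylation without PPAR gamma siRNA array 2, and none for the peroxisome without PPAR gamma siRNA array 3 or preadipocyte array 2 or with the Actb covariate. The corresponding medians for intact adipocytes against preadipocytes were 2.10, 1.48, 1.62 and 2.20. Cpt2, which releases acyl groups inside the mitochondrion, read 8.78, 8.83 and 8.83 in preadipocytes, 10.41, 10.66 and 10.51 in the depleted cells and 12.27, 12.15 and 11.98 with control siRNA. It stood midway and overlapped neither group. Ndufb3 of complex I was 1.998-fold higher (change 0.998 ± 0.083), just under 2-fold, and the peroxisome division factor Pex11a 6.20-fold higher. The core subunit of ATP synthase Atp5b read 12.75, 12.83 and 12.78 in the depleted cells beside 12.93, 12.93 and 12.85 in preadipocytes and 14.01, 14.13 and 14.10 with control siRNA, a change of -0.12 ± 0.08 (adjusted p = 0.3119, not called). Dbt, the core of the branched-chain ketoacid dehydrogenase, was 6.17-fold higher (adjusted p = 1.38e-07). Bcat1, the cytosolic aminotransferase at the head of the same pathway, was in contrast 8.59-fold lower, at 4.91, 5.32 and 5.32 beside 8.35, 8.36 and 8.15 in preadipocytes.

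Of 20 brown and beige fat genes, 6 were higher, 2 lower and 12 not called (median 0.19). For 10 of the 20, both group means lay under 4.86, the median of all array values. Cox8b and Cox7a1, heart-type cytochrome oxidase subunits, were 14.2-fold and 10.3-fold higher, and the coactivator Ppargc1a was 2.69-fold higher. Cox8b and Cox7a1 were still below intact adipocytes, with log2 differences of -2.06 and -2.53. The 2 lower members were Pdk4 and Eva1a, and Eva1a was 5.70-fold lower than in preadipocytes (adjusted p = 6.64e-08 by limma). Ucp1, the uncoupling protein of brown fat, read between 3.77 and 4.10 in all 9 arrays, near the bottom of the scale (change 0.03 ± 0.10, adjusted p = 0.8479).

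Genes of cholesterol synthesis, uptake and export were nearly all still raised. Of 23 measured, 22 were higher and none lower, with a median change of 1.29 beside 2.36 for intact adipocytes against preadipocytes. The synthetic enzymes Tm7sf2 (change 2.24), Fdft1 (1.88), Nsdhl (1.71) and Hsd17b7 (1.54) kept intermediate levels. Nsdhl read 9.30, 9.03 and 8.88 in preadipocytes, 10.61, 10.93 and 10.78 in the depleted cells and 11.44, 11.44 and 11.59 with control siRNA. The exporters behaved differently from the enzymes. Abcg1, which passes cholesterol to lipoproteins, read 5.14, 5.03 and 5.80 in preadipocytes and 10.75, 10.81 and 10.96 in the depleted cells, with 11.04, 11.29 and 11.01 under control siRNA. Abca1, which loads apolipoprotein A-I, read 7.93, 8.37 and 8.46, then 11.67, 11.73 and 11.84, against 11.36, 11.43 and 11.77. Both were close to the level of intact adipocytes, with differences of -0.28 and 0.22 (adjusted p = 0.3014 and 0.326), and were 45.7-fold and 11.3-fold above preadipocytes (adjusted p = 1.14e-09 and 1.15e-08 by limma).

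The promoters of cholesterol enzymes are shown because the list moved together. Windows of 250 bases before the start were available for 17 of the 23 genes from RefSeq on build GRCm38.p6, 20 windows in all. The box CCAAT, on either strand, was in 16 of these 20 windows (80%), and in 33.8% of all 32851 windows. It occurred at least 2 times in 9 of the 20 windows (45%) and in 10.1% of all windows. The last 150 bases before the start are printed 5′ to 3′ along the gene, with CCAAT or its reverse in capitals. The genes printed were picked because these bases hold CCAAT at least 2 times, so they are examples and do not stand for their list. Nsdhl lies at chrX:72918371-72918520 on the plus strand and Hsd17b7 at chr1:169969206-169969355 on the minus strand. A match is a description of letters and not of a bound site.
Nsdhl: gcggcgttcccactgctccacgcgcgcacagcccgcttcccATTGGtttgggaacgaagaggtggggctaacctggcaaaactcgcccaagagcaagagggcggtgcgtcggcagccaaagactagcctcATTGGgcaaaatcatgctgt
Hsd17b7: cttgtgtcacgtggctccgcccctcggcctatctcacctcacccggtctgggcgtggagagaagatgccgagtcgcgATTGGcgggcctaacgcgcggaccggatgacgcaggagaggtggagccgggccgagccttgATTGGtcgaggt
The DR1 element in its strict form, AGGTCA repeated after 1 base, which PPAR gamma binds with its partner, was in 11 of all 32851 windows (0.0335%) and in 0 of 22 windows of the PPARG target list, which says only that these letters are not in these windows.

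The transcription factors that build the fat cell were divided. Of 28 adipogenic factors, 16 were higher and 7 lower, with a median change of 0.48, beside a median of 0.17 for intact adipocytes against preadipocytes. The count of higher members was 10 with the Actb excess as a covariate, and the median was 0.13 when all probe sets of a gene were averaged. Klf15, a late factor of adipogenesis, kept most of its rise on the log2 scale. It read 4.01, 3.79 and 4.22 in preadipocytes, 10.03, 9.70 and 9.91 in the depleted cells and 11.53, 11.26 and 11.27 with control siRNA. Klf15 was 58.5-fold above preadipocytes but still below intact adipocytes (log2 difference -1.47, adjusted p = 4.04e-06 by limma). Cebpa, the partner of PPAR gamma, kept little. It read 8.64, 8.43 and 8.11, then 8.87, 9.35 and 9.17, against 11.69, 11.63 and 11.20, a change against preadipocytes of 0.74 ± 0.17 (adjusted p = 0.0061). Cebpd, an early factor of the cascade, stood at 9.42, 9.77 and 9.84 in the depleted cells, overlapping the preadipocytes at 9.46, 9.20 and 8.96 and above the intact adipocytes at 7.53, 7.43 and 7.25. The early factors Klf4 and Klf5 fell by 1.62 and 1.90 on the log2 scale, and Zfp423, a factor of preadipocyte commitment, fell by 1.00. Klf5 read 4.71, 5.04 and 5.07 beside 6.89, 6.88 and 6.74 in preadipocytes and 5.07, 4.81 and 4.19 with control siRNA, so its range overlapped that of intact adipocytes.

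Among 19 PPAR and RXR receptors and cofactors, 9 were higher and 2 lower (median 0.30, or 0.19 when all probe sets of a gene were averaged). The oxysterol receptor Nr1h3 (change 2.34), the corepressor Nrip1 (2.10) and the coactivators Ppargc1b (1.72) and Ncoa1 (1.57) were higher. Ppargc1b read 5.65, 5.84 and 5.64 in preadipocytes, 7.38, 7.45 and 7.46 in the depleted cells and 10.32, 10.40 and 10.35 with control siRNA, and therefore kept the lesser share of its fat-cell level. The nuclear receptor Nr2f2, which represses adipogenesis, fell by 0.99.

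The preadipocyte programme was present only in part. Its counts, too, stand beside 19.6% of all genes called higher and 16.9% called lower. Of 35 anti-adipogenic and preadipocyte factors, 5 were higher and 15 lower than in preadipocytes, with a median change of -0.13. The median was -0.25 when all probe sets of a gene were averaged and -0.22 without PPAR gamma siRNA array 1. In intact adipocytes the median was -0.86 against preadipocytes. Dlk1, the membrane protein that marks preadipocytes, read 14.16, 14.19 and 14.07 in preadipocytes, 12.13, 12.91 and 12.66 in the depleted cells and 11.02, 10.92 and 10.37 with control siRNA (change -1.58 ± 0.20, adjusted p = 7.59e-05). Zfp521, a repressor of adipocyte commitment, read 10.06, 10.16 and 10.15, then 8.10, 8.43 and 8.41, against 5.35, 5.68 and 5.70. Sfrp2, a secreted Wnt modulator, read 10.96, 10.92 and 10.63, then 7.21, 8.10 and 8.17, against 5.49, 4.69 and 5.15. All of these stood between the groups. Thy1, a surface marker of fibroblasts, was likewise intermediate and 3.95-fold below preadipocytes.

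Other members were back at the preadipocyte level. The growth factor receptor Pdgfrb read 10.94, 10.88 and 11.25 in the depleted cells beside 10.98, 11.02 and 11.11 in preadipocytes and 8.79, 8.75 and 9.04 with control siRNA, with a change of -0.01 ± 0.12 (adjusted p = 0.9514). The chondrogenic factor Sox9 read 8.12, 8.84 and 8.61 beside 8.22, 8.35 and 8.26, against 6.02, 6.30 and 6.25 (change 0.24 ± 0.16, adjusted p = 0.2882). Both overlapped preadipocytes on these arrays and lay above every intact adipocyte array. Pdgfra, another platelet-derived growth factor receptor, came near the preadipocyte level, at 10.99, 11.28 and 11.17 beside 11.68, 11.75 and 11.84, and was 1.53-fold lower.

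Yet other members stayed low. Besides Gata2, the helix-loop-helix inhibitor Id2 (change -2.42) and the ligand Wnt6 (-2.19) were as low as in intact adipocytes. Wnt6 read 5.77, 5.78 and 5.61 in the depleted cells and 5.60, 5.55 and 5.60 with control siRNA, beside 7.69, 7.98 and 8.06 in preadipocytes. Wnt5a, a non-canonical Wnt ligand, was lower than in either group, at 5.88, 6.26 and 6.19 beside 9.03, 9.20 and 9.14 in preadipocytes and 7.82, 7.81 and 8.03 with control siRNA. It was 8.09-fold below preadipocytes (adjusted p = 4.9e-09). The members that rose were Id1 (1.54), the Wnt- and insulin-regulated factor Foxo1 (1.17), Id3, the Notch target Hes1 (0.65) and the Wnt antagonist Sfrp1 (0.58). Id1, an inhibitor of helix-loop-helix factors, read 9.37, 10.01 and 9.71 beside 8.47, 8.09 and 7.92 in preadipocytes.

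**Figure D3:**
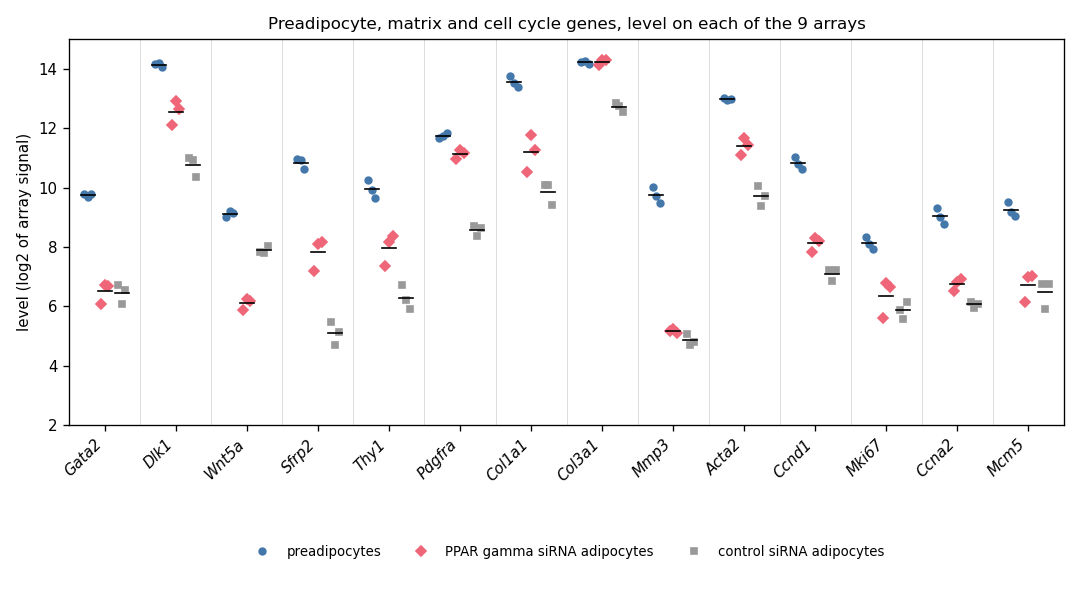
Log2 level of 14 preadipocyte, matrix and cell cycle genes on each array (vertical axis), with 3 points for each group and a black line at the group mean. Gata2, Mmp3 and Mcm5 of PPAR gamma siRNA adipocytes (red diamonds) lie with control siRNA adipocytes (grey squares), Col3a1 lies with preadipocytes (blue circles), and Dlk1, Sfrp2, Thy1 and Acta2 lie between.

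Genes of the matrix differed one from another. Counts of matrix genes stand beside the same shares of all genes, 19.6% called higher and 16.9% called lower. Of 26 collagens, 2 were higher and 11 lower (median -0.12). With the Actb covariate 1 was higher, as Col18a1 lost its call, and the median was -0.21. It was -0.05 without PPAR gamma siRNA array 1 and -0.19 without array 2. Col1a1, a chain of the main fibrous collagen, read 13.76, 13.52 and 13.40 in preadipocytes, 10.51, 11.79 and 11.27 in the depleted cells and 10.11, 10.08 and 9.41 with control siRNA, and was 5.16-fold below preadipocytes (adjusted p = 4.48e-05). Col3a1, which forms fibres with it, read 14.24, 14.26 and 14.18, then 14.13, 14.29 and 14.30, against 12.87, 12.74 and 12.55. The depleted cells overlapped preadipocytes for Col3a1 and not for Col1a1. Col6a3, a beaded-filament chain, rose by 0.74 ± 0.09 (adjusted p = 3.81e-05).

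Of 35 matrix glycoproteins and proteoglycans, 7 were higher and 15 lower (median -0.27, beside -1.53 for intact adipocytes against preadipocytes). When all probe sets of a gene were averaged, 2 of them were higher. Fbln1, a fibulin, fell the most, by 3.71, followed by the anti-adhesive protein Tnc (change -2.67). Osteoglycin (Ogn) read 11.86, 11.99 and 11.96 in preadipocytes, 10.17, 10.36 and 9.84 in the depleted cells and 5.97, 5.97 and 5.81 with control siRNA. Olfml3, a secreted matrix protein, read 11.06, 11.18 and 11.06, then 11.12, 11.37 and 11.18, against 7.03, 7.29 and 7.27. Ogn thus remained below preadipocytes, and Olfml3 overlapped them (change 0.12 ± 0.10, adjusted p = 0.4035). Fibronectin (Fn1) was higher than in both other groups on its brightest probe set (change 1.27 ± 0.08), but a second, dimmer probe set gave -1.37 ± 0.27 (adjusted p = 0.002), so no direction is given for this gene.

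Matrix enzymes and their inhibitors were mostly lower: 8 of 31 were higher and 18 lower, with a median change of -0.61. The median was -0.44 without PPAR gamma siRNA array 1 and -0.72 without array 2. The stromelysin Mmp3 showed the largest fall of all genes. It read 10.02, 9.72 and 9.50 in preadipocytes, 5.17, 5.26 and 5.10 in the depleted cells and 5.09, 4.72 and 4.79 with control siRNA, a 23.8-fold lower level (adjusted p = 7.27e-10). The tissue plasminogen activator Plat read 10.63, 10.91 and 10.93, then 6.48, 6.71 and 6.58, against 4.85, 4.71 and 4.84 (18.8-fold lower). Timp3, an inhibitor of metalloproteinases, fell by 3.46 on the log2 scale. Its relative Timp2 read 12.94, 12.91 and 12.93 in preadipocytes, 11.56, 11.94 and 11.60 in the depleted cells and 7.25, 7.19 and 7.17 with control siRNA, so it stood much closer to preadipocytes than to intact adipocytes and was 2.34-fold lower. The collagen-modifying hydroxylases Plod1 (change 1.71) and P4ha2 (1.64) and the inhibitor Timp4 (1.85) were higher.

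The contractile programme stayed below preadipocytes. Of 30 contractile and cytoskeletal genes, 5 were higher and 20 lower, with a median change of -0.50 beside -1.77 for intact adipocytes against preadipocytes. The higher members numbered 3 with the Actb covariate, and the median was then -0.63. Tropomyosin Tpm1 read 12.44, 12.33 and 12.41 in preadipocytes, 9.60, 10.08 and 9.95 in the depleted cells and 9.22, 9.07 and 9.07 with control siRNA (5.72-fold lower). Smooth muscle actin, Acta2, was 2.97-fold lower. The intermediate filament gene Synm stood out in the other direction, at 7.76, 8.18 and 8.52 in the depleted cells beside 6.82, 7.01 and 6.83 in preadipocytes and 3.65, 4.07 and 4.18 with control siRNA. Desmin (Des) was 3.44-fold above preadipocytes. Of 25 integrin and focal adhesion genes, 6 were higher and 12 lower, beside 19.6% and 16.9% of all genes, so the higher count is near its share. The fibronectin receptor chain Itga5 was 6.89-fold lower, at 6.14, 6.90 and 6.80 beside 9.55, 9.45 and 9.19, and the laminin receptor chain Itga7 was 7.61-fold higher, at 8.64, 8.62 and 8.67 beside 5.88, 5.48 and 5.79.

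Cell cycle genes stayed low. Of 29 measured mitosis genes, all 29 were lower than in preadipocytes, with a median change of -1.60 beside -2.08 for intact adipocytes. The median change for each PPAR gamma siRNA array against the preadipocyte mean was -1.94, -1.36 and -1.47, so it was largest on array 1. Of 29 DNA replication genes, 26 were lower and none higher (1 higher without control siRNA array 1 or 3, in the fit of the 6 arrays alone and after renewed quantile normalisation), with a median change of -0.89 (-1.07 with the Actb covariate). The 3 that did not pass the test were Orc1, Ung and Fen1.

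The promoters of cell cycle genes are shown because their members fell together. RefSeq windows of 250 bases before the start, on build GRCm38.p6, were available for 24 of the 29 mitosis genes (25 windows) and 25 of the 29 replication genes (29 windows). TTTGAA, the cell cycle homology region bound by the DREAM complex, was in 10 of 25 mitosis windows (40%), on either strand. It was in 3 of 29 replication windows (10.3%) and in 16% of all windows. CCAAT was in 19 of 25 mitosis windows (76%) and 16 of 29 replication windows (55.2%). The E2F element, searched as TTTNNCGC, was in 7 of 29 replication windows (24.1%), 1 of 25 mitosis windows (4%) and 4.28% of all windows. No test was made of these shares, and windows of genes with several starts can overlap. Both TTTGAA and CCAAT were in 9 of 25 mitosis windows (36%), 2 of 29 replication windows (6.9%) and 5.55% of all windows. The stretches below are the last 150 bases before the start, 5′ to 3′ along the gene. The genes printed were picked because these bases hold the marked letters, so they are examples and do not stand for their list. Capitals mark TTTGAA and CCAAT in Top2a (chr11:99024190-99024339, minus strand) and Ube2c (chr2:164769779-164769928, plus strand). They mark the E2F element alone in Mcm5 (chr8:75109359-75109508, plus strand) and Cdc6 (chr11:98908001-98908150, plus strand).
Top2a: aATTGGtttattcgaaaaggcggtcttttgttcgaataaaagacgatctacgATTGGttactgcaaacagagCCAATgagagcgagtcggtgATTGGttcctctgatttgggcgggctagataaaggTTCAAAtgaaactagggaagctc
Ube2c: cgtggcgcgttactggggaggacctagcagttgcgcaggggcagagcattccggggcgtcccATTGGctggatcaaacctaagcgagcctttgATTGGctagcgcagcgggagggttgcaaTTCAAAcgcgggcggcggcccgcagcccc
Mcm5: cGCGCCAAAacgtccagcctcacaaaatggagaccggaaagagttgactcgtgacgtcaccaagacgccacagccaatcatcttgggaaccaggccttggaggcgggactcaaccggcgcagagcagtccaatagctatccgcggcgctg
Cdc6: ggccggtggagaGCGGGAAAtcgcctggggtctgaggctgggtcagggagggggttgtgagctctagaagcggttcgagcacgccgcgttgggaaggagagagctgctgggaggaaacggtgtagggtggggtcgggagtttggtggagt

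Top2a, the topoisomerase that untangles chromosomes, read 9.16, 9.0 and 8.93 in preadipocytes, 6.55, 7.42 and 7.29 in the depleted cells and 6.88, 6.24 and 6.93 with control siRNA. Ube2c, which marks mitotic cyclins for destruction, read 10.29, 10.09 and 9.79, then 7.60, 8.58 and 8.25, against 7.94, 7.40 and 8.05. The helicase subunit Mcm5 read 9.52, 9.17 and 9.05, then 6.16, 7.00 and 7.02, against 6.77, 5.92 and 6.76. In each of these the 2 adipocyte groups overlapped, and both lay below every preadipocyte array. They were 3.85-fold, 3.77-fold and 5.72-fold below preadipocytes (adjusted p = 4.04e-05, 7.27e-05 and 1.84e-05 by limma). Bub1, a kinase of the spindle checkpoint, fell the most of the mitosis list (change -2.79). The proliferation marker Mki67 was 3.47-fold lower, at 5.60, 6.78 and 6.65 beside 8.35, 8.11 and 7.95. Cdc6, which loads the helicase at origins, read 4.42, 4.29 and 4.27 in the depleted cells, below 5.54, 4.74 and 4.80 with control siRNA and 6.19, 6.01 and 5.82 in preadipocytes.

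Of 24 G1 cyclins and CDK inhibitors, 3 were higher and 10 lower (median -0.25, or -0.39 with the Actb covariate and -0.16 without x and s probe sets). Cyclin D1, Ccnd1, read 11.03, 10.82 and 10.63 in preadipocytes, 7.85, 8.30 and 8.22 in the depleted cells and 7.24, 6.85 and 7.22 with control siRNA, and was 6.51-fold below preadipocytes (adjusted p = 1.15e-07). The inhibitor Cdkn1b was lower too, by 3.09-fold. The retinoblastoma gene Rb1, a brake on E2F, was 2.96-fold higher, at 8.68, 8.63 and 8.78 beside 7.07, 7.14 and 7.18. Cdkn2a, which encodes p16 and p19ARF, was back at the preadipocyte level, at 9.53, 9.53 and 9.44 beside 9.41, 9.54 and 9.48 in preadipocytes and 7.90, 7.82 and 7.59 with control siRNA.

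**Figure D4:**
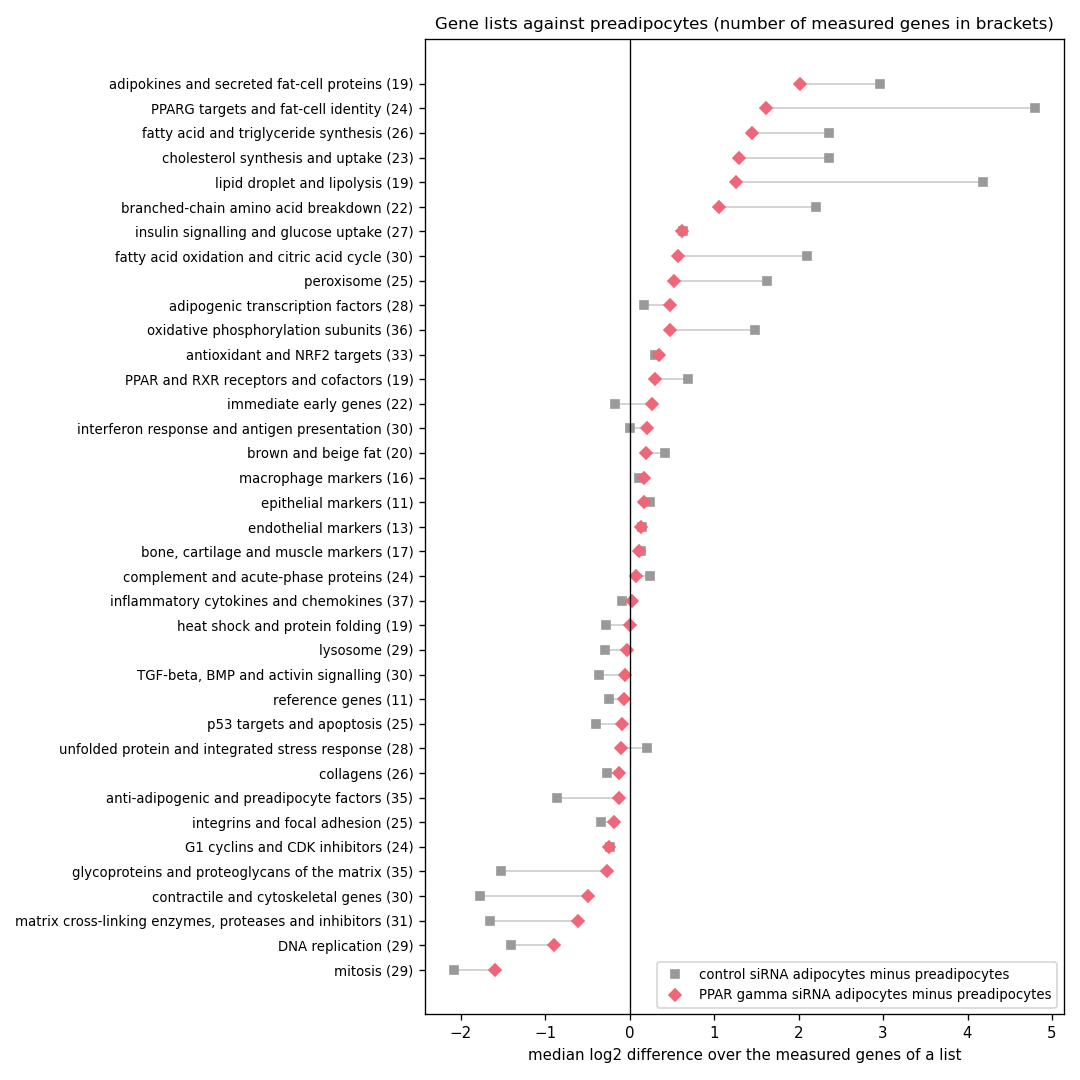
Median log2 difference from preadipocytes over the measured genes of each of 37 lists (horizontal axis), for PPAR gamma siRNA adipocytes (red diamonds) and control siRNA adipocytes (grey squares), which share the preadipocyte arrays. The red diamonds lie at 2.02 for adipokines and at -1.60 for mitosis, and those of the fat-cell lists lie between 0 and the grey squares, except for adipogenic transcription factors (0.48 beside 0.17).

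The 15 largest rises were Adipoq, Cd36, G0s2, Thrsp, Fabp4, Orm1, the apolipoprotein Apoc1, Itih4, the carboxylesterases Ces1f and Ces1d, the aldehyde dehydrogenase Aldh1a7, 2610528A11Rik, Klf15, the selenium-binding protein Selenbp1 and the hydrolase Cmbl. They spanned 53.3-fold to 601-fold, with adjusted p of 3.11e-10 or less. Their preadipocyte means were 2.91 to 5.72, low on the scale, so the folds are understated. Against intact adipocytes, 12 of the 15 were called lower, 1 higher and 2 neither. Over all genes 16.1% were called lower and 19.9% higher in that comparison. Apoc1 was the one above intact adipocytes: it read 5.94, 5.70 and 5.53 in preadipocytes, 12.77, 12.80 and 12.69 in the depleted cells and 12.32, 12.37 and 12.33 with control siRNA.

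The 15 largest falls spanned 9.86-fold to 23.8-fold. They were Mmp3, Plat, the mucin-type glycoprotein Pdpn, Fbln1, the prokineticin receptor Prokr1, Gm2115, the lipoprotein-associated phospholipase Pla2g7, Timp3, the neutrophil chemokine Cxcl5, the adhesion receptor Adgrg6, Fndc4, the protocadherin Pcdh7, the neuropeptide Y receptor Npy1r, the BMP antagonist Grem1 and the matrix protein Edil3. Against intact adipocytes, 8 of these 15 were higher, 1 was lower and 6 did not pass the test. Pdpn read 10.53, 10.33 and 10.27 in preadipocytes, 6.33, 6.68 and 6.68 in the depleted cells and 6.31, 6.17 and 5.99 with control siRNA. Pla2g7 was the one below intact adipocytes, at 5.13, 5.34 and 5.55 beside 6.62, 6.60 and 6.60 there and 9.12, 8.89 and 8.67 in preadipocytes.

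Some fat-cell genes stood at the same level in the depleted and the intact adipocytes. Of all genes 1.15% were called at least 4-fold above preadipocytes. The 10 of these with the smallest difference between the adipocyte groups are described here without a test, as they were chosen by that difference, which ran from -0.07 to 0.08. They were 4.07-fold to 26.6-fold above preadipocytes. Sult1a1, a sulfotransferase, read 5.86, 5.77 and 5.57 in preadipocytes, 10.32, 10.68 and 10.40 in the depleted cells and 10.55, 10.37 and 10.49 with control siRNA. The kinase Dapk1 read 4.26, 4.41 and 4.77, then 8.99, 8.93 and 9.0, against 8.97, 8.91 and 8.99. The arachidonic acid-metabolising cytochrome Cyp2c23 read 3.90, 3.43 and 3.53, then 8.28, 8.28 and 8.26, against 8.38, 8.17 and 8.02. The adipocyte groups overlapped in all of these and lay far above preadipocytes. The others were the mucin-like Parm1, the protease Prtn3, the endoplasmic reticulum oxidase Ero1a, the ADP-ribose hydrolase Macrod1, the iron regulator Hfe, the vitamin B12 carrier Tcn2 and the histone gene H2bc22. Ero1a was the most variable in the depleted cells, at 12.98, 11.66 and 12.18.

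Other genes were new to the depleted cells, in that they stood above both preadipocytes and intact adipocytes. The 10 with the largest excess over the nearer group were chosen by these values and are given without a test. Lumican (Lum), a leucine-rich proteoglycan of collagen fibrils, read 9.21, 8.94 and 8.70 in preadipocytes, 8.47, 8.33 and 8.58 in intact adipocytes and 11.97, 12.41 and 12.12 in the depleted cells. Clusterin (Clu), a secreted chaperone, read 8.38, 8.21 and 8.25, then 9.19, 9.04 and 9.19, against 11.56, 11.56 and 11.64 in the depleted cells, and its other 3 probe sets changed by 3.40 to 3.51 against preadipocytes. Comp, a cartilage matrix protein, read 5.10, 5.01 and 4.98, then 5.46, 5.37 and 5.55, against 7.72, 7.88 and 7.87. In each of these every array of the depleted cells was above all 6 other arrays. The carnitine-synthesis enzyme Bbox1 read 7.87, 8.18 and 8.02 in the depleted cells and between 4.74 and 5.62 on the 6 other arrays. The pigment-cell antigen Mlana read 7.52, 7.42 and 8.07 and was between 4.30 and 4.71 elsewhere. Lrrc75b read 9.15, 9.77 and 9.52 in the depleted cells beside 7.16, 7.12 and 7.05 in preadipocytes and 4.84, 3.96 and 4.59 in intact adipocytes. The others were Fam107a, the matrix protein Ecm2, the serine protease Htra4 and the lysosomal transporter Slc46a3. Over the 10 genes the excess over preadipocytes was 5.10-fold to 13.5-fold.

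The 10 genes furthest below both other groups, also chosen by these values, were 2.74-fold to 8.09-fold below preadipocytes. Phgdh, the first enzyme of serine synthesis, read 11.17, 10.92 and 10.90 in preadipocytes, 11.02, 10.80 and 10.94 in intact adipocytes and 8.85, 9.05 and 9.27 in the depleted cells. Sgms2, a sphingomyelin synthase, read 7.18, 7.28 and 7.22, then 6.76, 6.96 and 7.27, against 5.19, 4.77 and 5.36. The gap junction protein Gja1 read 8.11, 8.50 and 8.36, then 9.67, 9.80 and 9.64, against 7.12, 6.52 and 6.96. The first of these were alike in the other groups, and Gja1 was highest in intact adipocytes. Its other 5 probe sets were lower than preadipocytes too. The remaining genes were Wnt5a, Lhfpl2, cyclin E2 (Ccne2), Pmepa1, Zfp367, Ilrun and Klhl2. Ilrun rested on a single x-type probe set, which can take up related sequences, at 6.30, 6.44 and 7.14 beside 8.18, 8.17 and 7.99 in preadipocytes, and its second probe set was near the bottom of the scale with a change of 0.03.

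**Figure D5:**
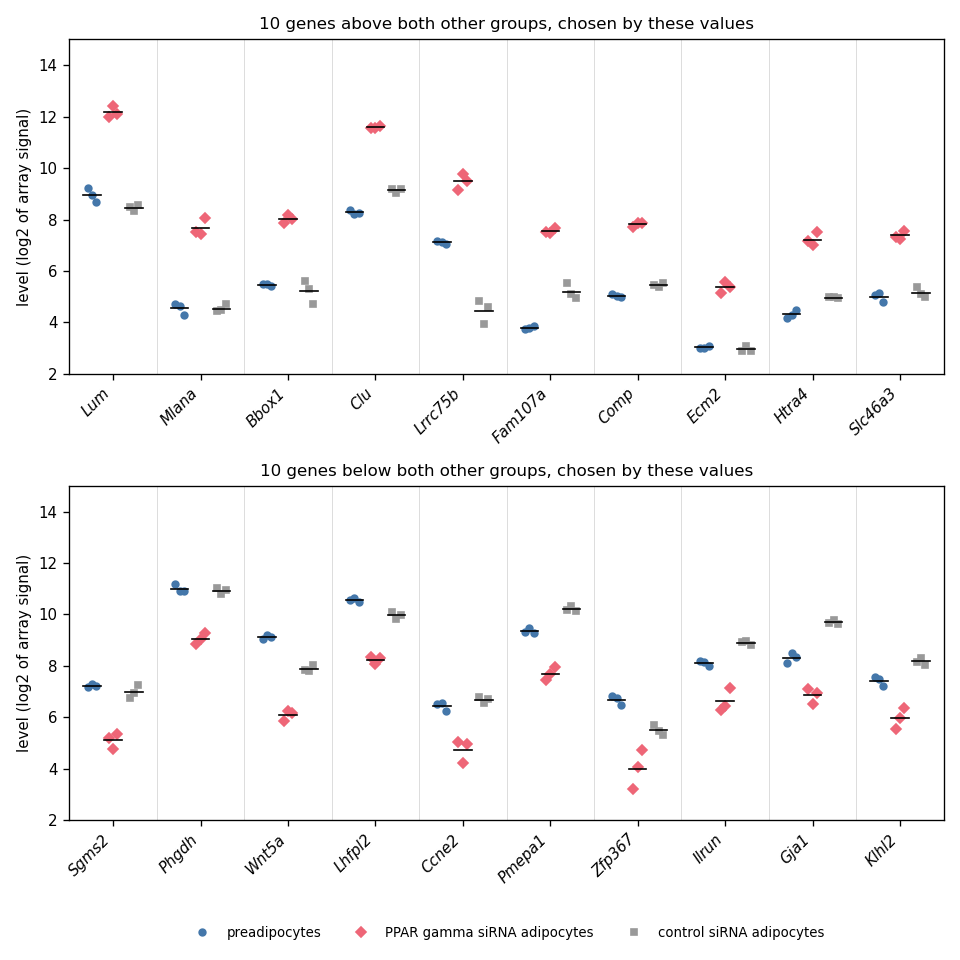
Log2 level on each array (vertical axis) of the 10 genes most above (top) and the 10 genes most below (bottom) both other groups in PPAR gamma siRNA adipocytes (red diamonds), with a black line at each group mean. The genes were chosen by these values, so the separation from preadipocytes (blue circles) and control siRNA adipocytes (grey squares) is a description, as for Lum at 11.97 to 12.41 against at most 9.21.

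Stress and signalling genes were mixed. The counts in this and the following paragraphs stand beside 19.6% of all genes called higher and 16.9% called lower. Several lists were near these shares, and such a count is no result about the members of a list. Of 22 immediate early genes, 11 were higher and 6 lower (median 0.27, or 0.10 when all probe sets of a gene were averaged). Fos, a component of AP-1, read 6.57, 6.40 and 6.45 in preadipocytes, 8.95, 9.78 and 9.58 in the depleted cells and 7.86, 7.57 and 7.69 with control siRNA (7.82-fold above preadipocytes, adjusted p = 1.93e-07). Its relative Fosl1 was in contrast 2.61-fold lower, and Jun fell by 0.77. Fos therefore stood above both other groups, while Fosl1 and Jun were lower than in preadipocytes.

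Of 37 inflammatory cytokines, chemokines and mediators, 6 were higher and 9 lower. The median of 0.02 had no stable sign: it was -0.08 with dim probe sets left out, -0.04 over all probe sets of a gene, -0.01 without x and s probe sets, 0.11 with the Actb covariate and just below 0 without PPAR gamma siRNA array 1. Interleukin 6 (Il6) read 5.05, 5.32 and 5.76 in the depleted cells beside 4.19, 3.95 and 3.83 in preadipocytes and 4.21, 3.67 and 3.95 with control siRNA. Serum amyloid Saa3 was 3.31-fold higher. Cxcl5 was 10.8-fold lower, Cxcl12, the chemokine that retains haematopoietic cells, 3.29-fold lower and the monocyte attractant Ccl2 2.19-fold lower. Ccl2 stood between the other groups, at 8.50, 8.53 and 8.50 beside 9.79, 9.61 and 9.51 in preadipocytes and 7.43, 6.70 and 7.21 with control siRNA.

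Of 30 interferon response and antigen presentation genes, 10 were higher and 2 lower (median 0.21, or 0.12 with the Actb covariate, 0.08 without PPAR gamma siRNA array 1 and 0.40 without array 2). The lower members numbered 5 without PPAR gamma siRNA array 1 and 1 without PPAR gamma siRNA array 2 or preadipocyte array 1 or 3. The immunoproteasome subunits Psmb8 and Psmb9 rose by 1.83 and 1.69. Psmb8 read 9.12, 8.65 and 8.92 in the depleted cells, 8.40, 8.35 and 8.61 with control siRNA and 7.11, 7.13 and 6.95 in preadipocytes, so it was highest in the depleted cells. The antiviral GTPase Mx1 went from 7.98, 7.78 and 7.88 to 7.29, 6.15 and 6.55, a call (adjusted p = 0.018) that was lost without PPAR gamma siRNA array 2 or preadipocyte array 1 or 3, and in the test against 1.2-fold.

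Of 24 complement and acute-phase genes, 9 were higher and 3 lower. The lower members numbered 5 without PPAR gamma siRNA array 3, and 5 with the Actb covariate. The part of RNA quality in these counts was not tested. Complement factor B (Cfb) read 8.13, 8.04 and 8.15 in the depleted cells, above 6.46, 6.32 and 6.20 with control siRNA and 5.14, 4.85 and 5.03 in preadipocytes. Ceruloplasmin (Cp), the copper oxidase of plasma, was 8.83-fold higher. The classical pathway protease C1s1, in contrast, was 1.60-fold lower, but much nearer to preadipocytes than to intact adipocytes: it read 10.90, 11.08 and 11.06 beside 11.62, 11.76 and 11.69 in preadipocytes and 7.97, 7.81 and 7.78 with control siRNA.

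Of 30 genes of TGF-beta, BMP and activin signalling, 6 were higher and 11 lower. The BMP antagonist Grem1 was 10.0-fold lower, the latency protein Ltbp1 7.66-fold lower and the activin antagonist follistatin, Fst, 5.60-fold lower. Fst read 10.79, 10.96 and 10.97 in preadipocytes, 7.97, 8.63 and 8.66 in the depleted cells and 5.81, 4.95 and 5.93 with control siRNA. It stood between the groups, whereas Grem1 and Ltbp1 were at the level of intact adipocytes. The activin subunit Inhbb was 3.04-fold higher.

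In the unfolded protein response, 10 of 28 genes were higher and 12 lower (median -0.10, or -0.20 without PPAR gamma siRNA array 1 and 0.02 without array 2). The oxidase Ero1a rose, and the folding factors Pdia6, Manf and Calr fell by 1.18, 1.13 and 0.87. Pdia6 read 9.76, 9.26 and 9.47 in the depleted cells beside 10.67, 10.70 and 10.65 in preadipocytes and 11.07, 11.01 and 11.08 with control siRNA, below both. Of 33 antioxidant genes, 16 were higher and 3 lower (median 0.35). Aldh3a1, an aldehyde dehydrogenase, read 7.58, 7.52 and 7.86 in the depleted cells, above 6.38, 6.32 and 6.46 in preadipocytes and 4.0, 4.17 and 3.94 with control siRNA. The glutathione transferase Gstt1 showed the same order, at 9.28, 9.41 and 9.35 beside 8.04, 7.89 and 7.91 and 6.70, 6.57 and 6.59.

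Of 25 p53 target and apoptosis genes, 9 were higher and 7 lower (median -0.09, or 0.01 without PPAR gamma siRNA array 1, 0.0041 without preadipocyte array 3 and 0.04 over all probe sets of a gene). The growth-arrest genes Btg2 and Gadd45a were 3.85-fold and 3.72-fold higher, and Phlda3, an inhibitor of AKT, was 3.03-fold lower. Bcl2, a brake on apoptosis, was lower on its brightest probe set (change -0.83) and slightly higher on a dim one (0.28). Of 19 heat shock genes, 5 were higher and 3 lower (median 0.01, or -0.02 without preadipocyte array 3, -0.03 and -0.05 without PPAR gamma siRNA array 1 and 3, and -0.07 with the Actb covariate), and the higher members numbered 2 with the Actb covariate or without preadipocyte array 3, and 3 without preadipocyte array 1 or 2 or PPAR gamma siRNA array 3. The small heat shock gene Hspb1 was 2.53-fold higher. Of 29 lysosomal genes, 4 were higher and 6 lower (median -0.03, or 0.03 without PPAR gamma siRNA array 1 and 0.02 after renewed quantile normalisation). The ganglioside activator Gm2a was called in opposite directions by its probe sets (2.03 and -0.61).

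Markers of other cell types were mostly low. The counts here and in the next paragraph stand beside 19.6% of all genes called higher and 16.9% called lower. A count near these shares is no result about the members of a list. Of 16 macrophage markers, 3 were higher and none lower (5 higher without PPAR gamma siRNA array 3 or with the Actb covariate). Cd68, Mpeg1 and Cd14 made up the 3: Cd68 read 7.21, 6.09 and 6.38 in the depleted cells beside 4.13, 4.0 and 3.91 in preadipocytes and 5.43, 5.33 and 5.33 with control siRNA, and Cd14, the lipopolysaccharide co-receptor, read 8.46, 8.31 and 8.61 beside 6.61, 6.54 and 6.56 and 6.68, 6.59 and 6.79. The mean log2 level over the 16 markers was 4.39 to 4.50 in preadipocytes, 4.83 to 5.12 in the depleted cells and 4.67 to 4.71 with control siRNA. The defining markers Adgre1, Itgam and Ptprc stayed near the bottom of the scale, at 3.13 to 3.75 in the depleted cells, and Csf1r read 6.10, 6.10 and 5.98 beside 6.08, 5.98 and 6.10 in preadipocytes. Their part in the results was not tested.

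Of 13 endothelial markers, 3 were higher and 1 was lower. Without preadipocyte array 2, 1 was higher and none lower. The defining Pecam1 and Cdh5 lay near the bottom of the scale, between 3.60 and 4.14, in both groups compared, and the mean over the 13 was 4.24 to 4.35 in preadipocytes and 4.34 to 4.52 in the depleted cells. Of 17 bone, cartilage and muscle markers, 6 were higher and none lower, of which Comp and Des passed 2-fold, and the mean was 4.27 to 4.30 in preadipocytes and 4.66 to 4.72 in the depleted cells. Of 11 epithelial markers 2 were higher, or 1 without preadipocyte array 1 or PPAR gamma siRNA array 1, and the keratin Krt18 was the larger (change 1.34). The epithelial mean was 4.58 to 4.66 in preadipocytes and 4.77 to 4.91 in the depleted cells. The part of these markers in the results was not tested. Among 11 reference genes, 4 were higher and 2 lower. Both lower members, Ywhaz and Gusb, lost their call without preadipocyte array 2, and 1 of them without preadipocyte array 1 or 3 or PPAR gamma siRNA array 1. Gusb also lost its call with the replicate block (adjusted p = 0.056), and both did in the test against 1.2-fold. The transferrin receptor Tfrc was the reference gene with the largest change, 1.07, which was 0.52 and not called (adjusted p = 0.0871) when its probe sets were averaged.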

How the data were processed

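The authors deposited log2 probe set values of 9 single-colour arrays of mouse 3T3-L1 cells, which were used without further scaling. MAS5, RMA and affy 1.16.0 are named, with no role, per the submitters' processing notes, and the sources used here do not name the background correction. Raw scans were not used here. Of the tested probe sets, 34945 had 1 gene symbol in the platform annotation, 932 had several and 9160 had none listed. Of the 18193 genes, 9010 had several probe sets, and 34741 single-symbol probe sets matched RefSeq.

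One linear model with a mean for each group was fitted to all 9 arrays with limma 3.58.1 in R 4.3.3, and two-sided p-values were adjusted by Benjamini and Hochberg over 45037 probe sets. The fit was tested on simulated data. The members, the 37 gene lists (927 of 1016 entries measured) and the tests were chosen with earlier results of these data known, so no list is independent evidence. Lists were described by counts and medians, with no set test.

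Named by rule were Pparg, Gata2, Gata3 and Rxra, the 15 largest rises and falls whose arrays did not overlap, up to 3 rises and 3 falls of each list, fixed markers, and the sets of 10 persisting genes and of 10 genes above or below both other groups. Other list members were named after their values were seen. Alternatives covered scaling, filters, probe set choice, variance model, thresholds, a replicate block, RNA quality and the omission of each array.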

Additional observations from a re-analysis of the deposited data

How the results depend on the processing

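The counts of 3558 higher and 3074 lower genes stayed within 1.5 times under the 20 other settings except for stricter thresholds: a test against 1.2-fold called 1802 higher and 1762 lower, and a 2-fold minimum left 781 and 912. Leaving out 1 array at a time gave 2819 to 3618 higher and 2555 to 3103 lower genes, and a Pparg change of 1.31 to 1.43. Replicate numbers did not pair the arrays, as the deviations of same-numbered arrays from their group means correlated at -0.188 to 0.173. A fit with the replicate block called 3374 higher and 2982 lower genes and gave Pparg a change of 1.36 (adjusted p = 8.24e-06).

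Of the 218 named genes called, 193 kept call and direction under the settings run and 23 lost the call under at least 1. The 2-fold minimum was not run for single genes, so called genes with smaller changes, such as Lpl, count as kept. Directions reversed, without a call, for Ucp1 with renewed quantile normalisation (-0.019, adjusted p = 0.9095) and without PPAR gamma siRNA array 2 (-0.042, adjusted p = 0.8126, the lowest value when 1 array was left out, the highest being 0.12 without PPAR gamma siRNA array 3; the Actb covariate gave 0.14), for Ilrun without x and s probe sets (0.032, adjusted p = 0.8592) and for Fn1 as the mean of its probe sets (-0.050, adjusted p = 0.8375). In the last 2 cases another probe set takes part. Of 1480 recomputed list counts, 1361 stayed within 1.5 times and 119 moved further. Values near the bottom of the scale understate folds, and 3 arrays a group limit precision.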
